A study of Mus musculus with 15 samples.

Results

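In mouse embryonic forelimb, 444 clusters of Mbnl3 CLIP tags were present in wild-type (WT) tissue, absent as clusters from C2C12 cells, and overlapped by fewer than 5 tags in Mbnl3 ΔE2 mutant forelimb. A cluster is a stretch where sequenced RNA fragments, called tags, overlapped on a strand. These sparse clusters were 32.2% of the 1379 reproducible WT clusters, which held at least 10 tags pooled over 3 WT libraries and at least 1 from each. They overlapped no C2C12 cluster of 10 or more tags. Of the other WT clusters, 469 also lacked a C2C12 cluster but had 5 or more ΔE2 tags, called retained clusters here, and 466 overlapped a C2C12 cluster, called shared clusters. The tag counts of all 3 materials therefore chose the sparse clusters, and differences in those counts are given below as descriptions, without a test.

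Muscleblind proteins are zinc-finger proteins that bind RNA and steer alternative splicing, and they also bind the ends of mRNAs, where they affect stability and placement in the cell. Mbnl3 is the family member known from embryonic tissue and proliferating myoblasts rather than from adult muscle. In HITS-CLIP, ultraviolet light joins protein to the RNA it touches, an antibody recovers the protein, and the attached fragments are sequenced, so that a cluster marks RNA recovered with the protein. A cluster can be sparse because less protein was bound or because less of that RNA was present, and CLIP tags alone cannot tell these apart.

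WT tissue came from forelimbs of BL6 embryos at day 15, with 4 forelimbs of 2 embryos in each of 3 libraries. Mutant tissue, of the same strain and age and pooled in the same way, was homozygous for the ΔE2 allele of Mbnl3 and is titled Mbnl3 KO. The labels name female mice for WT. C2C12, a mouse myoblast line, was grown in 20% serum and gave 3 libraries that the authors combined. The same antibody to Mbnl3 was used for all, and the labels do not say which form of the protein it would recover from mutant tissue. Each forelimb CLIP library was sequenced in a lane or lanes of its own, 1 to 3 for WT and 5 to 8 for ΔE2. Lane and genotype therefore cannot be told apart. RNA-seq, a separate sequencing of forelimb RNA at day 15, covered 3 WT samples and 3 titled Mbnl3 KO. The authors' table of cassette exons, used near the end, comes from that RNA-seq, and libraries named below are CLIP libraries.

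WT libraries held 35413 to 124309 tags and 233845 in all. ΔE2 replicates 2 and 3 shared 33916 molecules, meaning tags of the same position, strand and 5-base barcode, and were counted as 1 library of 65730 tags beside replicate 1 with 67279. The C2C12 set held 550124 tags once repeated molecules were counted once. Molecules were also shared across genotypes. Of the tags of ΔE2 replicate 1, 35.5% were molecules present in a WT library, against 7.47% for the merged replicates 2 and 3. WT replicate 3 alone held 20258 of them. Where a tag of ΔE2 replicate 1 lay at exactly the position of a tag of WT replicate 3, the barcode was also the same for 84.5%, although 256 barcodes were in use. The summed rates, flanks and left-out libraries below are therefore given with and without molecules found in both genotypes. For the left-out libraries, such molecules were taken out of ΔE2 only.

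Depth set much of what could be a sparse cluster. The ΔE2 set held 0.569 tags for each WT tag. At equal rates, a cluster with the 12 WT tags that were the median here would hold 6.83 ΔE2 tags, and the extremes would hold 5.69 and 22.2. WT tags ran from 10 to 39 in the sparse clusters, with 246 of them (55.4%) at 10 to 12 tags and 117 at exactly 10. Retained and shared clusters had medians of 20 WT tags each and reached 755 and 950. Of the clusters without a C2C12 cluster, 75.2% of those with 10 to 12 WT tags were sparse (95% Wilson interval 70.3 to 79.6). The share was 52.2% at 13 to 15 tags, 51.7% at 16 to 19 and 25.7% at 20 to 29. It was 1 of 76 at 30 to 49 tags and 0 of 58 above. Intervals here cover counting error only.

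More sparse clusters lay near the limit on ΔE2 tags than far below it. There were 35 clusters with 0 tags, 86 with 1, 104 with 2, 116 with 3 and 103 with 4, and 64 clusters lay just outside with 5. On both sides of that limit, the clusters of median size were alike. Inside, a minus-strand cluster at chr1:45432554-45432606 had 1, 5 and 6 WT tags and 4 and 0 ΔE2 tags (replicate 1, then replicates 2 and 3 merged). Outside, a minus-strand cluster at chr3:27317430-27317516 had the same 1, 5 and 6 WT tags and 4 and 1 ΔE2 tags. The others named at the limit, also with 12 WT tags, were chr1:153739801-153739879 and chr1:169153068-169153156 inside and chr10:56108875-56108931 and chr11:100064501-100064556 outside. A single tag thus separated the groups. Single clusters were seldom deep enough to test. Only 5 sparse clusters lay in the 276 forelimb clusters that passed the low-count filter of edgeR, and 1 was called lower in ΔE2, where 6.52% of all tested clusters were called lower. The tested clusters were merged over WT and ΔE2 tags. The called one kept its span, while the others were wider than their sparse clusters and held more ΔE2 tags. Their log2 folds were -1.23, -0.85, -0.40 and -0.24, with adjusted p-values of 0.15 to 0.688 in edgeR. Of the calls, 44 were higher and 18 lower in ΔE2, but 28 and 46 with scaling by library size and 22 and 58 with scaling by total tags. Since the same counts chose the clusters, nothing is read from that call.

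In all, the sparse clusters held 2.55% of WT tags. Rates are given as CPM, the tags per 1000000 of all tags of a library. The summed rate over sparse clusters was 32276, 25282 and 23691 CPM in WT replicates 1, 2 and 3. In ΔE2 it was 9795 in replicate 1 and 5964 in the merged library, a mean 0.291 of the WT mean. Retained clusters had a ratio of 0.758 and shared clusters 0.866. The 3 WT rates all lay above both ΔE2 rates in 292 of the 444 sparse clusters (65.8%), and in 45.1% of all 1379 WT clusters. All 1379 clusters were selected for tags in WT, and 81.9% of them had fewer ΔE2 tags than the WT rate would give, as did 67.6% of retained clusters.

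The cluster with the most WT tags lay at chr7:149841597-149841713 on the minus strand (coordinates of mm9, counted from 1), with 7, 13 and 19 tags in the WT libraries and 2 in each ΔE2 library. That is 198, 175 and 153 CPM in WT (mean 175 ± 22.4, SD, n = 3) and 29.7 and 30.4 in ΔE2. It had 0 C2C12 tags, which allows up to 5.45 CPM there. The rule capped its ΔE2 tags and it was named for its WT tags, so the gap between the sets is partly fixed by the choice. Each ΔE2 value rests on 2 tags. This was the cluster called in edgeR, with a log2 fold of -1.94 and a standard error of 0.57. The call ended without WT replicate 2, without WT replicate 3 and without each of the ΔE2 replicates in turn, and also with DESeq2 or without the low-count filter.

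Next came a minus-strand cluster at chr2:25992540-25992648, with 169, 121 and 113 CPM in WT and 44.6 and 15.2 in ΔE2. At chr10:87398360-87398456 on the plus strand, the 3, 9 and 15 WT tags faced 3 and 0 in ΔE2, and C2C12 had 0. All 3 of those ΔE2 tags were molecules also found in WT. So were all those at chr5:34695092-34695216 on the plus strand, again 3 in number. There the WT values also overlapped those of ΔE2, since WT replicate 1 had 1 tag, or 28.2 CPM, against 148 and 121 in replicates 2 and 3, and 29.7 and 15.2 in ΔE2.

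The plus-strand cluster at chr9:113885682-113885763 gave the most even values of this set: 4, 7 and 13 WT tags, or 113, 94.4 and 105 CPM, and 1 tag in each ΔE2 library. A plus-strand cluster at chr6:30697078-30697201 had 84.7, 94.4 and 121 CPM in WT and 14.9 and 30.4 in ΔE2. The plus-strand clusters at chr1:133829039-133829119 and chr1:133926596-133926765 had 27 and 23 WT tags. The ΔE2 tags of the first were 0 and 3, none of them a WT molecule. Those of the second were 4 and 0, all 4 of them WT molecules.

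Among these 12 clusters, the WT libraries disagreed most at a pair with 24 WT tags. At chr1:166367640-166367748 on the minus strand, WT had 226, 40.5 and 105 CPM and ΔE2 59.5 and 0. At chr14:28341479-28341531 on the plus strand, WT had 226, 135 and 48.3 and ΔE2 0 and 60.9. In both, the lowest WT library lay below the higher ΔE2 library. The rest of the 12 clusters with the most WT tags were chr10:56110015-56110077 on the plus strand and chr10:80829675-80829793 on the minus strand, with 23 WT tags each and 3 and 4 in ΔE2. In edgeR the minus-strand one was part of a wider cluster, with 5 and 4 tags in the ΔE2 libraries and a log2 fold of -0.40. Among the 12, the WT libraries all lay above both ΔE2 libraries at 8. The share was 65.8% over all sparse clusters and 45.1% over all WT clusters.

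**Figure D1:**
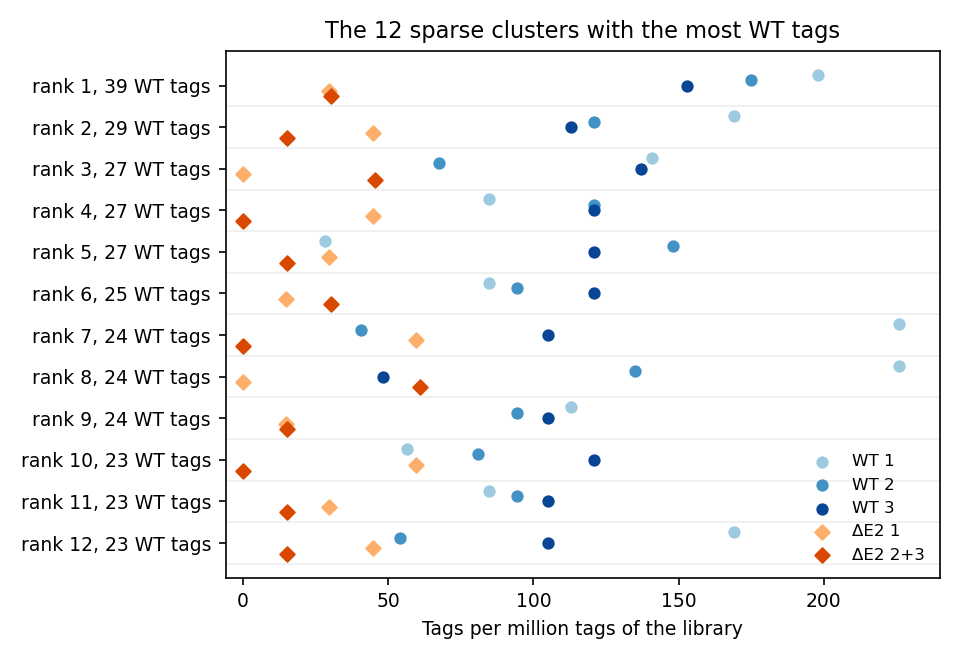
Rate in CPM, tags per 1000000 of the library (x axis), at the 12 sparse clusters with the most WT tags, ordered by those tags; circles are the 3 WT libraries and diamonds the 2 ΔE2 libraries. At 8 of the 12 clusters every circle lies to the right of both diamonds, as at 65.8% of all sparse and 45.1% of all WT clusters. At the chromosome 14 cluster, rank 8, WT runs from 48.3 to 226.

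Clusters with no ΔE2 tag at all numbered 35, with 10 to 18 WT tags and a median of 11. A count of 0 in the ΔE2 set allows up to 22.6 CPM. Of these, 10 also had no C2C12 tag, with 10 to 16 WT tags. The largest lay at chr1:120195427-120195511 on the minus strand, at 2, 6 and 8 WT tags, or 56.5, 80.9 and 64.4 CPM. A minus-strand cluster at chr2:127531046-127531170 had 1, 2 and 12 tags, most of them from WT replicate 3. At chr5:73060179-73060268 on the plus strand, WT had 3, 4 and 7 tags. Another 5 named by the same rule were minus-strand clusters with 10 or 11 WT tags: chr3:91884917-91885075, chr7:17617773-17617858, chr8:108656063-108656120, chr9:83672847-83672928, and chr11:72265526-72265621. The chromosome 8 cluster had 5, 4 and 2 tags, highest in the WT library with the fewest tags. At this depth each of these 10 clusters would hold 5.69 to 9.10 ΔE2 tags at the WT rate.

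Molecules found in both genotypes made up more of the ΔE2 tags over sparse clusters in replicate 1 than over other clusters. The rule itself could raise this share, since it capped ΔE2 tags and required WT tags, and that was not tested. Of 1051 ΔE2 tags over sparse clusters, 475 (45.2%) were molecules present in a WT library. In replicate 1 the share was 63.1% (416 of 659 tags, 95% Wilson interval 59.4 to 66.7), against 42.6% over retained clusters and 37.5% over shared clusters. In the merged replicates 2 and 3 it was 15.1%, 11.5% and 16.2%. Over sparse clusters, a shared molecule had a median of 1 read in ΔE2 replicate 1 and 100 reads summed over the 3 WT libraries. By that sum, 360 of the 416 had more reads in WT. In all, the 416 had 34871 reads in ΔE2 replicate 1 and 276556 in the WT libraries. Over the whole library the medians were 1 and 39. For 81 sparse clusters, every ΔE2 tag was a WT molecule, so that 116 had none left when these were set aside.

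Setting aside molecules of both genotypes in every library lowered ΔE2 replicate 1 far more than the merged library. Replicate 1 then went from 9795 to 3612 CPM over sparse clusters and the merged library went from 5964 to 5066, so their order turned. WT became 29509, 22341 and 20562. Over sparse clusters ΔE2 had fewer tags than WT, so common molecules were a larger share of them. Dropping these molecules could thus lower the ratio by counting alone, and the lower ratio is no separate reading. Retained clusters in ΔE2 replicate 1 went from 67450 to 38749 and in the merged library from 52822 to 46767. WT went from 84799, 77709 and 75642 there to 75396, 65418 and 61564. With WT molecules left out of ΔE2 alone, 154 retained clusters would drop under 5 tags and 598 clusters would be sparse.

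**Figure D2:**
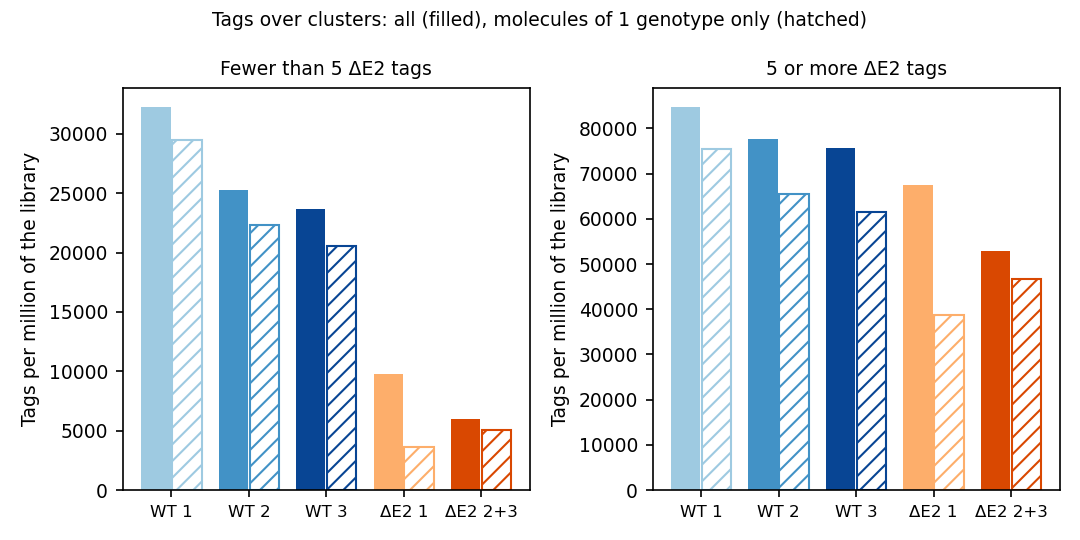
Summed rate in CPM, tags per 1000000 of each library (y axis from 0, scales differ) over sparse (left) and retained (right) clusters; filled bars are all tags, hatched bars leave out molecules found in the other genotype. ΔE2 replicate 1 loses the largest share, from 9795 to 3612 over sparse clusters, while the WT libraries keep most of their tags.

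WT libraries shared molecules with each other as well, which bears on reproducibility. The 5962 WT tags over sparse clusters came from 4736 distinct molecules. Counted once, at least 10 distinct molecules lay in 235 of the 444 clusters, and the lowest number was 5. A molecule seen in no other WT library was present in every WT library at 263 clusters, and in WT replicate 1 at 292.

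A ΔE2 library that had no part in choosing gave a less extreme picture. When clusters without a C2C12 cluster were chosen by fewer than 3 tags in the merged replicates 2 and 3, 550 qualified, at 35639 CPM in WT. Replicate 1 then held 18921 CPM over them, 0.531 of WT (exact 95% interval 0.5001 to 0.5632, counting error only). Over the other 363 clusters its ratio was 0.865. Chosen instead in replicate 1, 405 clusters had a ratio of 0.343 (0.313 to 0.375) in the merged library, beside 0.639 for the other 508. Leaving out ΔE2 molecules found in WT, the ratios over the chosen clusters were 0.223 and 0.301, and over the others 0.511 and 0.565. WT kept all its tags in that count, so those ratios could only fall, and they are no separate reading. With all tags, each left-out library had a lower ratio to WT over the chosen clusters than over the others. That is 1 library each way, with no test, and WT tags were used for the choice throughout. ΔE2 replicate 1 also shared 2490 and 3178 molecules with replicates 2 and 3, so a left-out library was not fully separate. The 550 chosen clusters were shallower in WT, since the other 363 held 67540 CPM. The choice could thus lower the ratio by itself, and nothing is read from the difference.

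Tags beside the clusters differed less between genotypes than tags within them, where the rule had set the difference. Some of the flanking tags lay in other WT clusters, whose tags the rule also used. Another sparse cluster lay within 1000 nt of 95 sparse clusters, and a retained one within that distance of 78. Within 1000 nt on either side, outside the cluster, WT libraries held 56025, 51941 and 51766 CPM for the sparse set, and ΔE2 held 42123 and 34261. The ratio of means was 0.717, against 0.820 beside retained clusters and 0.838 beside shared ones. Both ΔE2 libraries lay below all WT libraries beside each of the 3 kinds of cluster, and no test was made over clusters chosen this way. With tags in other WT clusters left out, WT held 22280, 24297 and 25187 CPM beside sparse clusters and ΔE2 19843 and 16309, a ratio of 0.756. The same ratio was 0.948 beside retained clusters, where WT and ΔE2 libraries overlapped, and 0.813 beside shared ones. With those tags kept, the ratio beside sparse clusters was 0.600 within 200 nt and 0.735 within 5000 nt. It was 0.604 within 1000 nt with molecules of both genotypes set aside. In the same order, the ratios were 0.831, 0.849 and 0.719 beside retained clusters and 0.830, 0.865 and 0.743 beside shared ones. At least 1 ΔE2 tag lay within 1000 nt of 408 of the 444 sparse clusters (91.9%), and at 394 one that was not a WT molecule. Of the 35 clusters without a ΔE2 tag, 34 had one within 1000 nt.

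Around the midpoints of sparse clusters, with tags of neighbouring clusters included, WT libraries had 72.9, 57.1 and 53.3 CPM per cluster in the central 100 nt, and ΔE2 had 22.2 and 13.3. In the next 100 nt upstream the values were 12.8, 13.6 and 13.8 in WT and 9.51 and 7.16 in ΔE2. From 500 to 1000 nt upstream they were 5.31, 4.55 and 4.82 against 3.17 and 2.42. On the downstream side at that distance they were 6.02, 5.54 and 5.67 against 5.04 and 4.10. The ratio of means was 0.291 at the centre, 0.622 and 0.554 in the adjoining windows, 0.571 far upstream and 0.796 far downstream. The rule made the central ratio low. Cluster edges lie where WT tags stop, which can lower WT counts in the adjoining windows. Retained clusters had 0.762 at the centre and 0.808 to 0.894 outside.

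**Figure D3:**
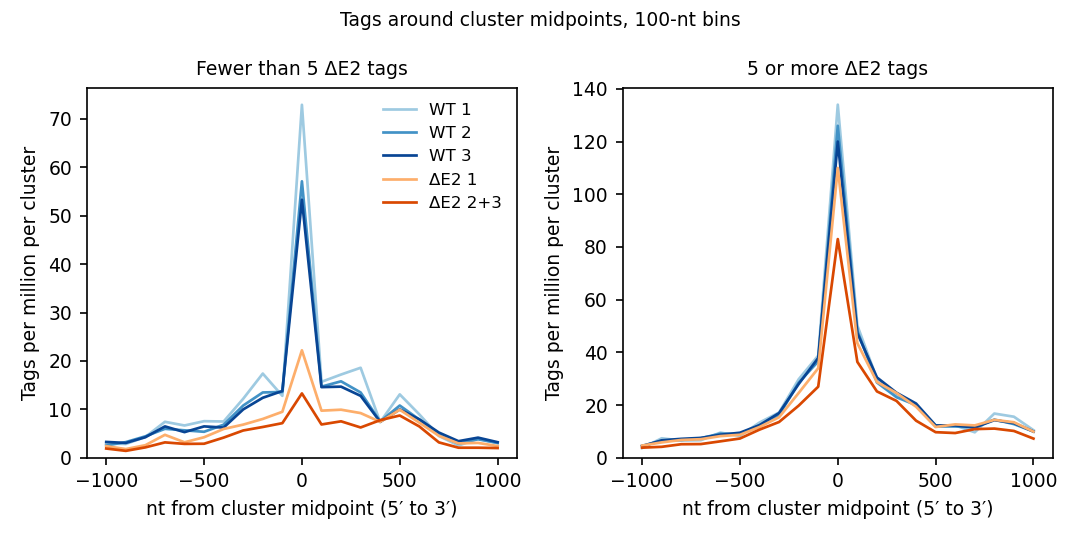
Mean rate per cluster in CPM (y axis) by distance of the tag midpoint from the cluster midpoint in 100-nt bins, read 5′ to 3′, for sparse (left) and retained (right) clusters in 3 WT (blue) and 2 ΔE2 (orange) libraries. The ΔE2 lines over sparse clusters keep a central peak, at 22.2 and 13.3, below the WT peaks of 53.3 to 72.9, and approach the WT lines downstream.

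The ΔE2 tags counted over sparse clusters lay near the same points as WT tags, a little less tightly, but the counting partly sets both. Only tags overlapping a cluster were counted, and cluster edges came from WT tags. WT tags thus lay wholly inside, while ΔE2 tags could reach past an edge. Tags of each library were set against the median midpoint of WT tags from other libraries, leaving out molecules those libraries also held. For ΔE2 these were all 3 WT libraries, and for each WT library the remaining ones. Over sparse clusters, 75.7%, 75.0% and 71.7% of WT tags fell within 20 nt, and 67.6% and 69.3% of ΔE2 tags. Median distances were 8.50 to 10 nt in WT and 10.1 and 11.5 nt in ΔE2. Retained clusters, which are wider, had 55.3% to 57.2% in WT and 62.1% and 59.3% in ΔE2.

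Sparse clusters were narrower than the others, with a median of 75 nt (24 to 189) against 90 and 91 nt. They had 8 distinct 5′ ends where the others had 12, and the most used 5′ end took 26.5% of tags against 20% and 19.4%. Fewer tags go with both. The length of WT tags was 30.5 ± 0.306 nt over sparse clusters, 30.1 ± 0.436 over retained and 31.4 ± 0.529 over shared clusters (SD, n = 3). Within each WT library, tags were slightly longer over sparse than over retained clusters, at 30.8 and 30.6, 30.4 and 29.8, and 30.2 and 29.9 nt. Tags backed by 1 read made up 39.7% ± 4.43 in sparse, 33.6% ± 5.65 in retained and 30.4% ± 2.51 in shared clusters (SD, n = 3). In every WT library the share was highest in sparse clusters, for example 44.8%, 40.1% and 33.2% in replicate 1. ΔE2 replicate 1 had 53.4% over sparse clusters.

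The clusters followed the strand they were called on. Only 5 WT, 2 ΔE2 and 5 C2C12 tags lay on the opposite strand of all 444. The minus strand held 243 and the plus strand 201. Chromosome 11 had the most, 40 clusters or 9.01%, and held 10.7% of all WT clusters. Chromosome 9 held 32 sparse, 13 retained and 22 shared clusters, and chromosome 19 held 9, 18 and 46. No sparse or retained cluster lay on the mitochondrial chromosome, where 4 shared clusters did.

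Absence from C2C12 was a matter of degree. The sparse clusters had 1329 C2C12 tags in all, or 2416 CPM against 25496 in pooled WT. No C2C12 tag lay over 124 of them (27.9%), the median was 2, and 18 were overlapped by 10 to 12 tags that fell in separate small C2C12 clusters. Retained clusters had 2587 CPM and 163 without a tag. Tag length also differed between the materials, at 26 to 30 nt in C2C12 and 19 to 38 nt in forelimb.

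Most sparse clusters had no other sparse cluster near them. With clusters within 10000 nt on a strand joined, they formed 376 loci, 322 of them single, 42 pairs and 12 of 3 or 4 clusters. A WT cluster of any kind lay within 1000 nt of 36.7% of sparse clusters, against 53.7% of retained and 65.2% of shared ones. Within 10000 nt these shares were 44.4%, 61.8% and 67.8%. Clusters of 1 locus can come from 1 transcript and are not independent.

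The locus with the most WT tags in sparse clusters lay at chr15:79656988-79658357 on the minus strand. Its 4 sparse clusters had 65 WT and 9 ΔE2 tags. Over the whole span, WT had 649, 459 and 587 CPM and ΔE2 119 and 122. The tags between the sparse clusters numbered 65 in WT and 7 in ΔE2, a ratio of rates of 0.189. They include those of 1 retained cluster, which the rule had classed by its own tags.

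A plus-strand locus at chr11:94805912-94814358 held 4 sparse and 3 retained clusters, with 5196, 3332 and 2719 CPM in WT and 2096 and 1704 in ΔE2 over the span. Its 4 sparse clusters had 51 WT and 8 ΔE2 tags, while the tags between them numbered 718 and 245, a ratio of 0.600. At chr14:103378468-103379987 on the minus strand, the 3 sparse clusters had 55 WT and 8 ΔE2 tags, and the tags between them 12 and 9. C2C12 had 0 tags over that span. It also had 0 at chr15:101520584-101520974 on the minus strand, where WT had 593, 378 and 274 CPM and ΔE2 74.3 and 137.

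The other plus-strand loci were chr15:101042595-101043597, chr11:105919204-105920273 and chr2:32773037-32780033. The other minus-strand loci were chr15:72927997-72936381, chr11:120489241-120489574, chr6:119874992-119876188, chr4:134301375-134302233 and chr9:45746868-45750049. Over the spans of all 12 loci, ratios of ΔE2 to WT rates ran from 0.216 to 0.578, a direction largely fixed by the sparse clusters within them. With the tags of sparse clusters left out, ratios ran from 0.189 to 1.32, the highest at chr14:103378468-103379987, and chr11:120489241-120489574 had no other tags. The widest mixture was the chromosome 15 locus at 72927997, with 3 sparse, 1 retained and 4 shared clusters and 402 C2C12 tags.

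Sparse clusters could be tied to gene names only through the authors' RNA-seq table of cassette exons, which names 84 genes with coordinates of the same build. None of the 444 lay within 1 of its 98 events. Within 50000 nt on the same strand, a window chosen after the values were seen, 5 sparse clusters lay near events of 4 genes. It was not tested whether they belong to those genes. Retained and shared clusters were not counted in this way, so neither count can be set against the share over all WT clusters. The nearest was 3069 nt downstream of the Lphn1 event, at chr8:86465516-86465562 on the plus strand, with 2, 4 and 5 WT tags, 1 and 0 ΔE2 tags and 0 in C2C12. Lphn1 is an adhesion receptor, and the estimated counts in the authors' deposited table give its exon 80.1% inclusion in WT and 93.6% in the mutant (adjusted p = 0.000190). The header of the mutant columns there names another muscleblind gene.

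Downstream of the event of Psme3, a proteasome activator subunit, by 5628 nt, chr11:101184155-101184218 on the plus strand held 1, 4 and 5 WT tags, 0 ΔE2 tags and 1 C2C12 tag. By the authors' deposited table, Psme3 has 0.187% and 22.6% inclusion in WT and mutant (adjusted p = 1.98e-51). A minus-strand cluster at chr12:78038518-78038578, 15577 nt downstream of the event of Max, the partner of Myc proteins, had 4, 3 and 6 WT tags and 3 and 1 in ΔE2. Inclusion at Max is 28.3% and 17.5% in the authors' deposited table (adjusted p = 0.00737). Upstream of the event of Rcc1, the exchange factor of Ran, the minus-strand clusters chr4:131912097-131912173 and chr4:131912360-131912440, at 16176 and 16439 nt, had 11 and 12 WT tags and 2 ΔE2 tags each. The authors' deposited table has 15.6% and 28.7% for that exon (adjusted p = 0.0109). Such a p-value compares pooled RNA-seq tags of each genotype, not CLIP tags, without the variation among animals.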

How the data were processed

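The build was mm9 and the aligner of CLIP tags Novoalign, as the submitters' processing notes list them. The deposited forelimb files hold 1 line per position, strand and barcode. The score that the authors deposited with each tag has no stated meaning, is 0 throughout for C2C12, and was not used. Tags were counted here, with coordinates from 1. The deposited C2C12 set is pooled. In the authors' deposited exon table, values are estimated counts per genotype and the Benjamini adjusted p-value of a Fisher test, per the file headers; inclusion was recomputed from the estimated counts with inclusion tags halved. Its mutant column names another muscleblind gene.

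Clusters of all forelimb libraries (191766) went into edgeR 4.0.16 under R 4.3.3, with TMM scaling, filterByExpr at a minimum count of 10, and the quasi-likelihood test; calls had a Benjamini-Hochberg value at or under 0.05. DESeq2 1.42.0 was an alternative. This was tested on simulated counts. Python 3.11.15, numpy 2.4.6, pandas 2.3.3 and scipy 1.17.1 did the rest. The clusters and lists were chosen with earlier results of these data known. Named clusters were the 12 with the most WT tags, 8 with the most WT tags among those without ΔE2 and C2C12 tags, those at the ΔE2 limit, loci of 3 or more, calls lower in ΔE2, and those near exon events. Replicates are labelled biological. No mm9 genome or annotation was used here, so genes, sequences, motifs and tissue markers of clusters were not analysed.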

Additional observations from a re-analysis of the deposited data

How the results depend on the processing

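The number of sparse clusters depended on its limits and on depth. It was 135 and 38 with a minimum of 15 and 20 WT tags, 225, 35 and 700 with fewer than 3, with 0 and with fewer than 10 ΔE2 tags, and 165 with a limit on the ΔE2 rate relative to WT (under 0.25). It was 124 where any C2C12 tag dropped a cluster, 79 with WT thinned to the ΔE2 depth and 235 with each WT molecule counted once. Leaving out 1 library gave from 60 (without WT replicate 3) to 717 (without ΔE2 replicate 1), with 155 without WT replicate 2. Of the 444 clusters, 196 were found again among the 299 obtained with each molecule left to the library holding most reads of it, an alternative chosen after seeing the data, as were the other settings that drop or reassign shared molecules, except for those between replicates 2 and 3 of a genotype.

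edgeR called 62 clusters, 18 lower in ΔE2. Calls numbered 35 with DESeq2 (4 lower), 19 without the filter (8 lower) and 0 with WT replicates 2 and 3 as 1 library (0 lower; 72 had an unadjusted p at or under 0.05). Lower calls were 46 with library size, 58 with total tags, 38 with 6 libraries as labelled and 28 with each molecule left to 1 library. Without 1 library, calls ran from 16 to 90 and lower calls from 2 to 34. With the replicate number as a block in 6 libraries, 64 were called, 28 lower, with 0 sparse clusters among them; same-numbered libraries correlated at -0.32, -0.20 and -0.24 in their deviations from the group means, so the numbers were not taken to pair samples. Sparse clusters among the lower calls numbered 1, 2 under either scaling without TMM, 0 with DESeq2, without the filter, with 6 libraries, with WT replicates merged, with tags collapsed by position and with reassigned molecules, and 0 to 1 without 1 library.

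The median of 8 5′ ends became 13 for clusters of at least 20 WT tags, and 5 to 7 without 1 WT replicate. Median width was 100 nt for clusters of at least 20 WT tags, and tag length and the share with 1 read moved by less than 1 SD under that limit and without any 1 WT replicate. The flank ratio of 0.717 was 0.756 with tags in other WT clusters left out, 0.600 at 200 nt and 0.604 without molecules of both genotypes. The left-out ratio of 0.531 was 0.343 with the libraries exchanged, and 0.223 and 0.301 with WT molecules taken out of ΔE2 alone. Joining within 1000 or 50000 nt gave 392 and 367 loci.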
